A study of Homo sapiens with 4 samples.

Results

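This account covers 36 mature miRNAs that were nearly absent from the vector libraries of HFE-145 cells and present in both YAP5SA libraries. They were chosen by their raw read counts, which had to be at most 5 in each of the 2 vector libraries and at least 15 in each of the 2 YAP5SA libraries. Of the 2039 miRNAs in the table, 1238 had at most 5 counts in both vector libraries and 332 had at least 15 in both YAP5SA libraries. Both thresholds were met by 39 miRNAs, and 3 of these were left out by name: miR-1246, miR-1290 and miR-378a-5p. With the groups exchanged, 0 miRNAs met the thresholds. Because the members were selected on this contrast, their higher counts in YAP5SA are a description and carry no test.

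HFE-145 is an immortalised human gastric epithelial cell line. The 4 libraries were made from total RNA with a small RNA kit, 2 from cells carrying the vector and 2 from cells overexpressing YAP5SA. The labels do not say how YAP5SA was introduced, whether the cells were clones or a pool, or whether duplicates came from separate cultures, so the spread between duplicates may be technical. The mRNAs of YAP1 and of the miRNA host genes were not analysed here.

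YAP is a transcriptional co-activator that the Hippo kinases hold out of the nucleus by phosphorylating it, and that acts on genes mainly through TEAD factors. YAP5SA carries serine-to-alanine changes that make it insensitive to those kinases. A miRNA is cut from a hairpin in a longer transcript, which is often the intron of a protein-coding host gene, and usually the strand from a single arm of the hairpin is retained. Its seed, bases 2 to 8 of the mature strand, pairs with target mRNAs.

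The mature sequences below belong to 10 of the 12 members with the highest level in the lower of their YAP5SA libraries, those with an entry in the RefSeq table of miRNAs (GRCh38.p14). They are as listed in the deposited table, with the seed in capitals and written 5′ to 3′. They show that no seed is shared among them.
miR-3132: uGGGUAGAgaaggagcucagagga
miR-3659: uGAGUGUUgucuacgagggca
miR-4802-5p: uAUGGAGGuucuagaccauguu
miR-3692-5p: cCUGCUGGucaggaguggauacug
miR-5001-3p: uUCUGCCUcuguccagguccuu
miR-600: aCUUACAGacaagagccuugcuc
miR-6720-3p: cGCGCCUGcaggaacugguaga
miR-549a: uGACAACUauggaugagcucu
miR-3916: aAGAGGAAgaaauggcugguucucag
miR-934: uGUCUACUacuggagacacugg

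Among the 30 members with an entry in the RefSeq table, no member shared its seed with another member. A seed was shared with some other miRNA of the deposited table for 5 of these 30 members (16.7%), against 31.6% of the 2003 other miRNAs. The others were taken with or without an entry, so these shares cover unlike sets. Seed sharing was not tallied for the 6 members without an entry. miR-3132 shared its seed with miR-197-5p, miR-3916 with miR-3125, miR-5010-5p with miR-4525 and miR-4420 with miR-181b-3p. miR-3139 shared its seed, AGGAGCU, with miR-28-5p and miR-708-5p. Over all 36 members the mature length had a median of 22 bases (18 to 26) and the G+C content a median of 50.0% (31.8 to 73.9). Both medians equalled those of the other miRNAs.

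The vector libraries totalled 217235 and 195283 counts and the YAP5SA libraries 136903 and 191954, each pair in replicate order. Levels are also given as CPM, counts scaled by TMM effective library size, on which 1 count was 5.23 to 6.57 CPM. The members held 83, 88, 1348 and 1305 counts in the same order, or 0.0382%, 0.0451%, 0.985% and 0.680% of each library. Other miRNAs with at most 5 counts in both vector libraries also took a larger share in YAP5SA, 1.09% and 1.06% against 5.80% and 2.63%, and their median count went from 2 and 1 to 5 and 3. The 14 epithelial miRNAs, arms of the miR-200 family, miR-203 and miR-205, were all above 0 in the 4 libraries. They summed to 36520 and 33210 CPM in vector and 15460 and 18680 CPM in YAP5SA. Among the 11 tested, edgeR called 6 lower in YAP5SA and 0 higher, beside 21 lower of all 602 miRNAs tested. Blood cell miRNAs, 7 in number, summed to 291 and 309 CPM in vector and 579 and 183 CPM in YAP5SA. The 4 muscle miRNAs summed to 68.7 and 52.6 against 216 and 57.6 CPM, and the 6 of fibroblasts and smooth muscle to 137 and 197 against 307 and 131 CPM. The 5 neural miRNAs summed to 254 and 204 against 364 and 220 CPM, and the 2 endothelial arms to 26.4 and 98.6 against 170 and 62.8 CPM. All 5 of these sums were highest in YAP5SA replicate 1, the shallowest library. Embryonic stem cell miRNAs, 15 arms of the miR-302 and miR-371 clusters, together made up a large part of every library. They summed to 357000 and 405800 CPM in vector and 262600 and 393700 CPM in YAP5SA. Only 7 of the 15 arms had enough counts to be tested, and edgeR called 0 higher and 0 lower. In vector 1 and 0 arms were at 0 counts, and in YAP5SA 1 and 1, so the sum does not describe every arm. The 2 liver arms summed to 74.0 and 39.4 against 39.8 and 68.0 CPM. The part of library makeup or of other cell types in the members' counts was not tested.

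All 36 members passed the filter on low counts, which they could pass through the YAP5SA group alone. edgeR called 34 of the 36 higher, beside 11.8% of the 602 miRNAs tested, and miR-4724-3p and miR-921 were not called. The count was 1 without vector replicate 1, 7 without vector replicate 2, 20 without YAP5SA replicate 1, 18 with no filter and 14 with DESeq2. A higher value in YAP5SA with p under 0.05 was given for 17 members in the authors' deposited table, beside 4.27% of all 2039 miRNAs. Every YAP5SA count exceeded every vector count for all members by construction, beside 34.8% of all miRNAs. These counts use the contrast that chose the members, so nothing is read from them. The YAP5SA to vector ratio of pooled CPM ran from 4.81 to 261 with a median of 9.30. The authors' deposited table gave fold changes that ran from 2.50 to 95.3 with a median of 4.91 and were the lower of the 2 estimates for 36 of 36 members.

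**Figure D1:**
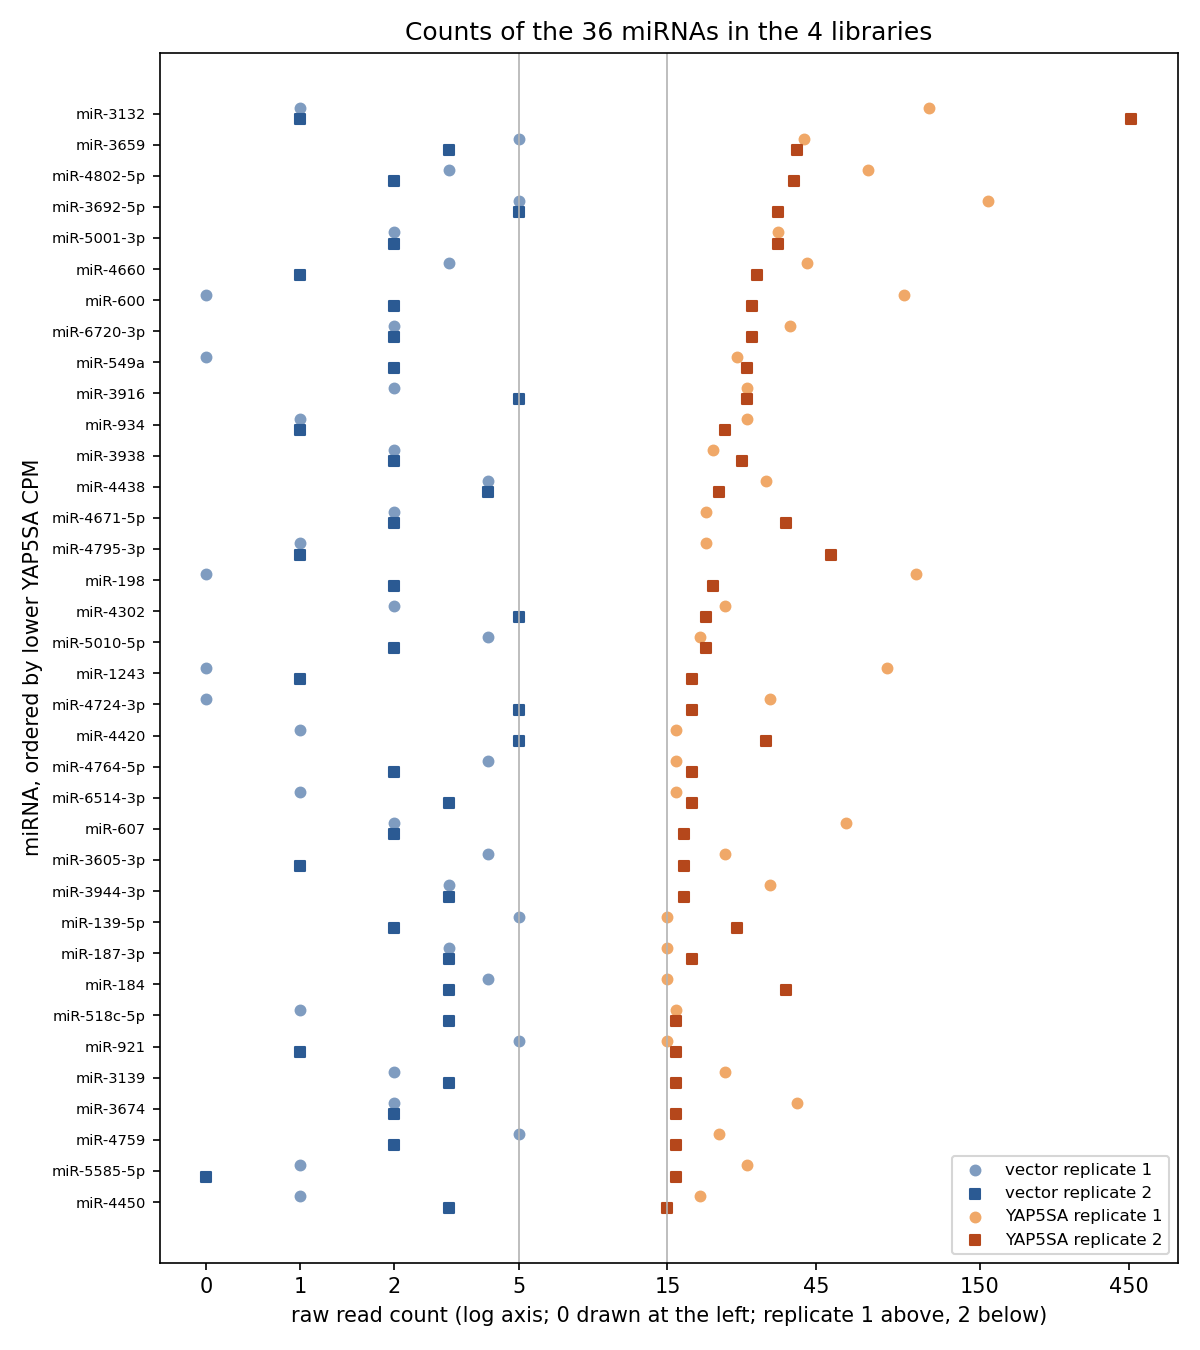
Raw counts (log axis, 0 drawn at the left) of each of the 36 miRNAs in vector replicates 1 and 2 (blue) and YAP5SA replicates 1 and 2 (orange and brown); grey lines mark the thresholds of 5 and 15. Most members lie close to the threshold of 15, and miR-3132 reaches 459 in YAP5SA replicate 2.

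Most placed members lay inside protein-coding genes on the same strand. Such a host was found for 19 of 30 (63.3%), beside 50.7% of the 1651 other placed miRNAs. The 19 hosts were different genes. The hairpins were spread over 15 chromosomes, with 6 on chromosome 1, 4 on chromosome 4 and 3 on chromosome 2. Positions are those of the hairpins on GRCh38.p14 and host genes are from GENCODE 29.

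Of the 30 placed members, 14 lay in an intron of a gene transcribed in the same direction. miR-4802-5p (chr4:40502040-40502119, minus strand) lies in an intron of RBM47, which encodes an RNA-binding protein, and had 3 and 2 counts in vector and 66 and 38 in YAP5SA. miR-3692-5p (chr6:157529132-157529200, plus strand) lies in ZDHHC14, a protein palmitoyltransferase gene, and had 5 and 5 counts in vector and 159 and 34 in YAP5SA. Both had the higher YAP5SA value in replicate 1. The pooled ratio was 19.3 (exact binomial 95% interval 8.03 to 60.8) for miR-4802-5p and 17.95 (9.55 to 38.02) for miR-3692-5p. Such intervals of members cover counting error only. They rest on the counts that chose the members, so their distance from equality is not read.

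miR-934 lies at chrX:136550878-136550960 (plus strand) in an intron of VGLL1, whose product is a cofactor of TEAD factors, the DNA-binding partners of YAP. It had 1 and 1 counts in vector and 27 and 23 in YAP5SA. The YAP5SA libraries were close to each other, at 153 and 120 CPM. The pooled ratio to vector, on the contrast that chose the members, was 23.2 (6.11 to 197). The level of VGLL1 mRNA was not analysed here. The hairpins of miR-934 and of 2 other members, miR-3132 and miR-3692-5p, are shown with the listed mature arms in capitals, from RefSeq (GRCh38.p14).
MIR934: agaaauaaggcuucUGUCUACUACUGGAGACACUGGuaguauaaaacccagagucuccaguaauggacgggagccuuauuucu
MIR3132: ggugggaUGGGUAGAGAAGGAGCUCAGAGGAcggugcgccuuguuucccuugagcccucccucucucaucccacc
MIR3692: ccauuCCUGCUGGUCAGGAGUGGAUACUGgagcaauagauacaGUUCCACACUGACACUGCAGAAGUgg

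Further intronic members follow. miR-1243 (chr4:113106863-113106955, plus strand), in the gene of the membrane scaffold ankyrin-B (ANK2), had 0 and 1 counts in vector and 76 and 18 in YAP5SA. Its hairpin had the weakest predicted fold per base among the members, at -0.159 kcal/mol. miR-4671-5p (chr1:234306467-234306539, plus strand), in the solute carrier gene SLC35F3, had 2 and 2 counts in vector and 20 and 36 in YAP5SA. miR-4438 (chr2:213758067-213758159, plus strand), in the sperm axoneme gene SPAG16, had 4 and 4 counts in vector and 31 and 22 in YAP5SA. For miR-4671-5p and miR-4438 the YAP5SA libraries were within 2-fold of each other.

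miR-3944-3p (chr10:133371556-133371663, minus strand), in the mitochondrial fatty acid oxidation gene ECHS1, had 3 and 3 counts in vector and 32 and 17 in YAP5SA. miR-3139 (chr4:143343460-143343535, plus strand), in the gene of the docking protein GAB1, had 2 and 3 counts against 23 and 16. miR-4450 (chr4:76573568-76573632, plus strand), in the gene of the actin regulator SHROOM3, had 1 and 3 counts against 19 and 15. The last count sits on the threshold. miR-6514-3p (chr11:62792702-62792771, minus strand), in the gene of the mRNA export receptor NXF1, had 1 and 3 counts against 16 and 18. miR-4420 (chr1:30739156-30739232, minus strand), in the gene of LAPTM5, a lysosomal membrane protein of blood cells, had 1 and 5 counts against 16 and 31. miR-139-5p (chr11:72615063-72615130, minus strand), in the cyclic nucleotide phosphodiesterase gene PDE2A, had 5 and 2 counts against 15 and 25. miR-139-5p is known for lowered levels in several carcinomas, and here it touched both thresholds. miR-921 (chr1:166154743-166154798, minus strand), in FAM78B, had 5 and 1 counts against 15 and 16, also touching both, with the lowest pooled ratio of the members, 4.81 (1.98 to 14.1). miR-3659 (chr1:38089231-38089329, plus strand) differed in host type: it lies in an intron of the long noncoding RNA AL139158.2, with the POU-domain factor gene POU3F1 as the nearest coding gene, 42437 bp away. It had 5 and 3 counts in vector and 41 and 39 in YAP5SA, and its YAP5SA libraries, at 233 and 204 CPM, differed by less than 1.5-fold.

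For 7 members the hairpin overlapped an exon on the same strand, and for 5 of them the mature sequence occurred exactly in a spliced transcript of that gene. miR-198 (chr3:120395668-120395729, minus strand) lies in an untranslated exon of FSTL1, the gene of a secreted follistatin-like glycoprotein; in keratinocytes the same transcript is known to give either the protein or the miRNA. It had 0 and 2 counts in vector and 94 and 21 in YAP5SA, the replicates differing beyond counting error. miR-600 (chr9:123111546-123111643, minus strand) lies in an exon of its noncoding host MIR600HG and in an intron of STRBP. It had 0 and 2 counts in vector and 86 and 28 in YAP5SA, again higher in replicate 1. miR-3916 (chr1:247201967-247202060, minus strand), in an exon of the transcribed pseudogene AL390728.4, had 2 and 5 counts in vector and 27 and 27 in YAP5SA.

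miR-5001-3p (chr2:232550474-232550573, minus strand) lies in an untranslated exon of TIGD1, a gene derived from a transposon. It also lies opposite an untranslated exon of EIF4E2, which encodes a cap-binding repressor of translation. The reverse complement of miR-5001-3p occurs in a spliced EIF4E2 transcript. miR-5001-3p had 2 and 2 counts in vector and 34 and 34 in YAP5SA, and the YAP5SA libraries were nearly equal at 193 and 178 CPM. miR-4724-3p (chr17:31534883-31534971, plus strand), in an untranslated exon of the Rab11 effector gene RAB11FIP4, had 0 and 5 counts against 32 and 18. Its vector libraries were the members' most uneven, and edgeR did not call it. Reads that match these 5 mature sequences would match fragments of the spliced host RNA equally, and the part of such fragments in the counts was not tested. The hairpins of miR-3605-3p and miR-5010-5p overlap coding exons, but their mature sequences were not found in spliced transcripts of other genes. miR-3605-3p (chr1:33332393-33332492, minus strand), at the polycomb gene PHC2, had 4 and 1 counts against 23 and 17. miR-5010-5p (chr17:42514188-42514307, plus strand), at the proton pump subunit gene ATP6V0A1, had 4 and 2 counts against 19 and 20. As for every member by construction, both were higher in each YAP5SA library than in either vector library.

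A further 5 members lay opposite a gene, and 4 lay between genes. miR-3132 (chr2:219549073-219549147, minus strand) lies opposite an intron of TMEM198, a membrane protein gene. It had 1 and 1 counts in vector and 103 and 459 in YAP5SA, or 585 and 2402 CPM. The value in replicate 2 was the highest of any member, while in replicate 1 miR-3692-5p was higher, at 903 CPM. It alone held 35.2% of the members' counts in YAP5SA replicate 2. Without it the members held 0.0378% and 0.0446% of the vector libraries and 0.909% and 0.441% of the YAP5SA libraries. miR-6720-3p (chr6:1390314-1390411, minus strand), opposite a coding exon of the forkhead factor gene FOXF2, had 2 and 2 counts against 37 and 28, and its reverse complement occurs in the spliced FOXF2 transcript. miR-549a (chr15:80841978-80842073, minus strand), opposite an intron of the hyaluronan-binding protein gene CEMIP, had 0 and 2 counts against 25 and 27. The YAP5SA libraries were close for both. miR-184 (chr15:79209788-79209871, plus strand), best known from cornea and lens epithelium, lies opposite an intron of the noncoding RNA ANKRD34C-AS1 and had 4 and 3 counts against 15 and 36. miR-4759 (chr21:26953961-26954043, plus strand), opposite an intron of the aggrecanase gene ADAMTS5, had 5 and 2 counts against 22 and 16.

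Between genes, miR-4795-3p (chr3:87226189-87226277, minus strand) lay 994 bp from CHMP2B, a gene of the ESCRT membrane-scission machinery, and had 1 and 1 counts in vector and 20 and 50 in YAP5SA. miR-4302 (chr12:25874020-25874079, minus strand), 84950 bp from RASSF8, had 2 and 5 counts against 23 and 20. miR-187-3p (chr18:35904818-35904926, minus strand), 67157 bp from C18orf21, had 3 and 3 counts against 15 and 18. miR-518c-5p (chr19:53708735-53708835, plus strand) belongs to C19MC, a large imprinted miRNA cluster known from placenta, and had 1 and 3 counts against 16 and 16. It was the single placed member with another hairpin within 10 kb on its strand. The 10 other miRNAs of the table within that distance had 0 to 5 counts in the YAP5SA libraries and 0 to 11 in the vector libraries. The neighbours were not selected on their counts, so they are given as a description.

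Counts only are given for 6 members: miR-3674, miR-3938, miR-4660, miR-4764-5p, miR-5585-5p and miR-607. miR-4660 had 3 and 1 counts in vector and 42 and 29 in YAP5SA. miR-3938 had 2 and 2 counts against 21 and 26, and miR-4764-5p had 4 and 2 against 16 and 18. The YAP5SA libraries were within 2-fold of each other for these. miR-5585-5p had 1 and 0 counts against 27 and 16, miR-3674 had 2 and 2 against 39 and 16, and miR-607 had 2 and 2 against 56 and 17. miR-5585-5p was the single member at 0 in vector replicate 2, 5 members were at 0 in vector replicate 1, and 0 members were at 0 in both.

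Set beside the 1651 other placed miRNAs, members were in a same-strand intron in 46.7% against 51.3%, in a same-strand exon in 23.3% against 17.3%, opposite a gene in 16.7% against 11.3%, and between genes in 13.3% against 20.2%. A coding host on the same strand was found for 63.3% against 50.7%. Another hairpin within 10 kb on the same strand was found for 3.33% against 24.8%, and for 22.9% of the 979 other placed miRNAs with at most 5 counts in both vector libraries. No pair of the 30 placed members lay closer than 1632 kb. Predicted folding energy per hairpin base had a median of -0.44 kcal/mol in members (-0.719 for miR-4438 to -0.159 for miR-1243) and -0.47 in the others. These shares describe 30 miRNAs, and each member moves a share by 3.33 points.

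**Figure D2:**
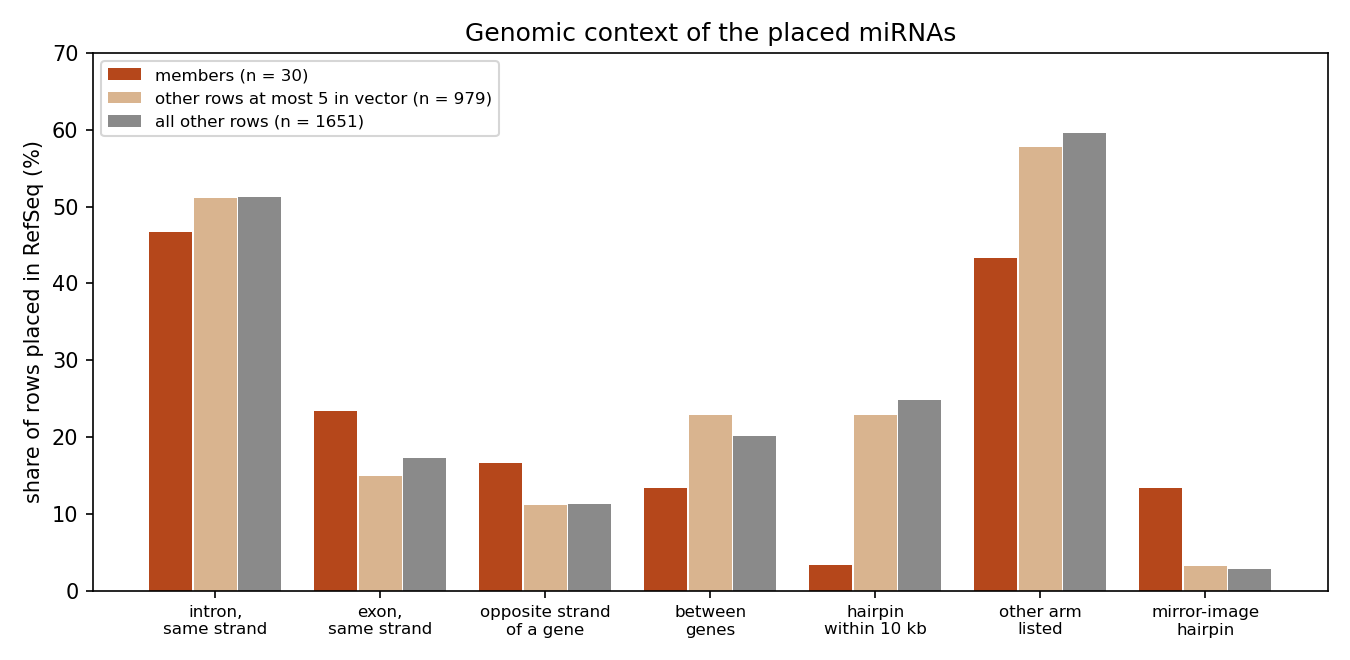
Share (%) of placed miRNAs in each genomic context, and with another hairpin within 10 kb, the other arm listed, or a hairpin that holds the reverse complement of the mature sequence (mirror-image hairpin), for the 30 placed members (brown), the 979 other placed miRNAs with at most 5 counts in both vector libraries (tan) and all 1651 others (grey). The share with a neighbouring hairpin was 3.33% in members and 22.9% and 24.8% in the others.

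In 4 members the hairpin held the exact reverse complement of the mature sequence, so that the mature sequence can be read from both DNA strands. These were miR-4438, miR-4759, miR-4795-3p and miR-549a, or 13.3% of placed members against 2.79% of the other miRNAs and 3.17% of the others with at most 5 counts in both vector libraries. Their mature sequences, with the seed in capitals, are shown because each occurs on both strands of its locus; that of miR-549a is given above.
miR-4438: cACAGGCUuagaaaagacagu
miR-4759: uAGGACUAgauguuggaauua
miR-4795-3p: aUAUUAUUagccacuucuggau
The hairpins of MIR4438 and MIR4795, with listed mature arms in capitals, show the mirrored arms.
MIR4438: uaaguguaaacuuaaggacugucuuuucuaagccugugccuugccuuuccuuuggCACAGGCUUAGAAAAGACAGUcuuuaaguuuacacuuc
MIR4795: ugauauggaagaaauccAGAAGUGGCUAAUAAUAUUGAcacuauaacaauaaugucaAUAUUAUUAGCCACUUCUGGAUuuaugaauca
A read with one of these mature sequences could come from a transcript of either genome strand, even if the counting used strand. The sources used here do not give the counting's use of strand. If strand was ignored, reads of the reverse complement would count as well. Fragments of EIF4E2 and FOXF2 transcripts could then count toward miR-5001-3p and miR-6720-3p. The origin of the reads was not tested.

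Agreement of the YAP5SA duplicates was set beside that of other miRNAs of like abundance. Of the 36 members, 26 (72.2%) were within 2-fold between YAP5SA replicates on the CPM scale, and 74.3% of the 35 with a mean YAP5SA count under 100, which leaves out miR-3132. The share was 72.6% for 296 other tested miRNAs with a mean YAP5SA count from 15.5 to 100. The replicates differed beyond counting error for 12 members (33.3%), for 31.4% of the 35, and for 37.5% of those others. More of the 36 members were higher in replicate 1 than in replicate 2, 26 against 10, while the others split 155 to 141. The members' median log2 ratio of replicate 1 to replicate 2 was 0.34, or 0.35 over the 35, against 0.04 for those others. The direction of the median over all 36 rested on the scaling, at 0.70 with library totals and -0.08 with DESeq2 size factors. The thresholds applied to both libraries, so this comparison is a description.

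The 12 members whose replicates differed beyond counting error fell into both directions. Higher in YAP5SA replicate 1 were miR-3692-5p, with a log2 ratio of 2.34, miR-198 with 2.28, miR-1243 with 2.20, miR-607 with 1.84, miR-600 with 1.74, miR-3674 with 1.40, miR-3944-3p with 1.03, miR-4724-3p with 0.95 and miR-4802-5p with 0.92. Higher in replicate 2 were miR-3132, with a log2 ratio of -2.04, miR-4795-3p with -1.20 and miR-184 with -1.15. For 17 members the higher YAP5SA CPM was at most 1.5 times the lower, and for 6 it was more than 3 times.

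**Figure D3:**
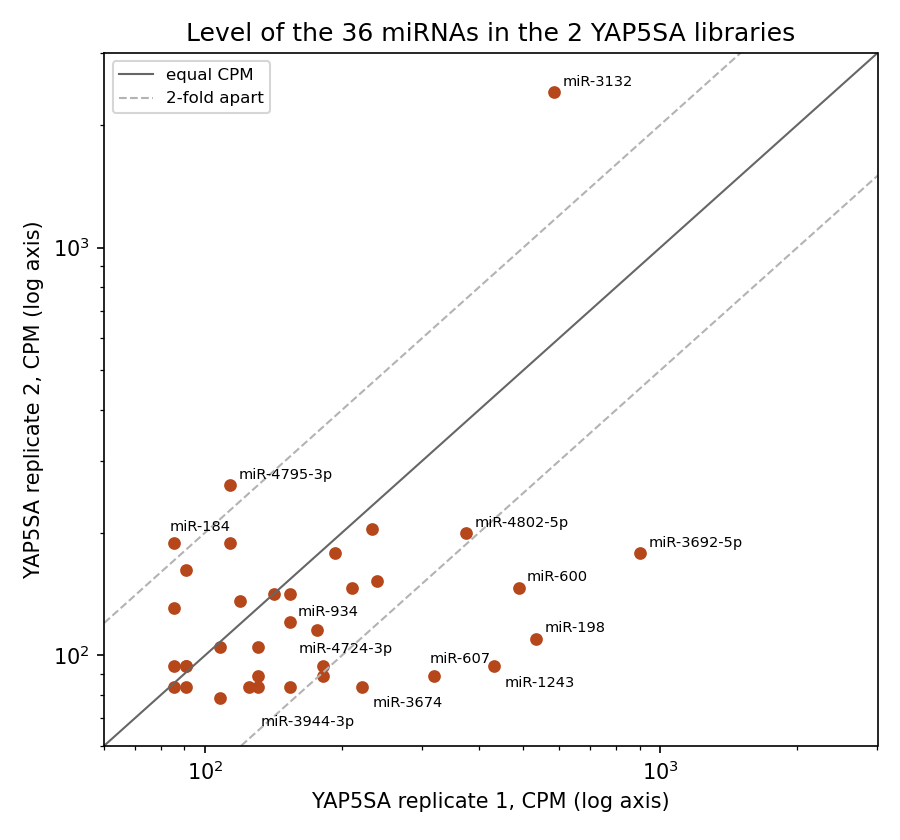
CPM of each member in YAP5SA replicate 1 (horizontal) and replicate 2 (vertical), both on log axes, with lines of equality and of 2-fold difference; the 12 members that differ beyond counting error and miR-934 are named. miR-3132 lies far above the line, at 585 and 2402 CPM, and miR-3692-5p far below it, at 903 and 178 CPM.

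The opposite arm of the same hairpin was listed in the table for 13 members, or 43.3% of those placed against 59.5% of the others. Apart from miR-4795-5p, these arms had 0 to 13 counts in every library. Summed over the 13 hairpins, the members had 34 and 34 counts in vector and 467 and 341 in YAP5SA, and the opposite arms had 42, 46, 92 and 97. Without the arms of MIR4795 the sums were 33, 33, 447 and 291 for members and 40, 44, 78 and 59 for opposite arms. The members' counts were fixed from below by the thresholds and those of the opposite arms were not, so nothing is read from the difference between arms. Of the 13 opposite arms, 5 had both YAP5SA counts above both vector counts, beside 34.8% of all miRNAs. miR-4671-3p had 0 and 0 counts in vector and 9 and 5 in YAP5SA. Its ratio was 4.34 with the vector group set to a floor of 3 counts. That value leaves out the counting error of the YAP5SA reads. miR-139-3p had 3 and 2 counts against 2 and 5, so its groups overlapped. miR-3692-3p had 4 and 11 counts against 7 and 8, and miR-5001-5p had 1 and 3 against 3 and 3, both also overlapping.

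miR-4795-5p was the single opposite arm with enough counts to be tested. It had 2 and 2 counts in vector and 14 and 38 in YAP5SA, with both YAP5SA libraries above both vector libraries and the higher value in replicate 2, as for miR-4795-3p. edgeR called it higher, with a log2 fold change of 3.50 ± 0.75 (SE) and an adjusted p of 0.030, beside 11.8% of the 602 miRNAs tested. It passed the filter on low counts through the YAP5SA group alone, so no conclusion is drawn from the call. The call was lost with DESeq2 (adjusted p = 0.076), without vector replicate 1 (0.256) or 2 (0.123) and without YAP5SA replicate 2 (0.053), with adjusted p from 4.33e-05 to 0.256 over all alternatives. Its sequence shares 18 bases with the reverse complement of miR-4795-3p, so the counts of the arms may not be separate measurements if strand was ignored; this was not tested.

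**Figure D4:**
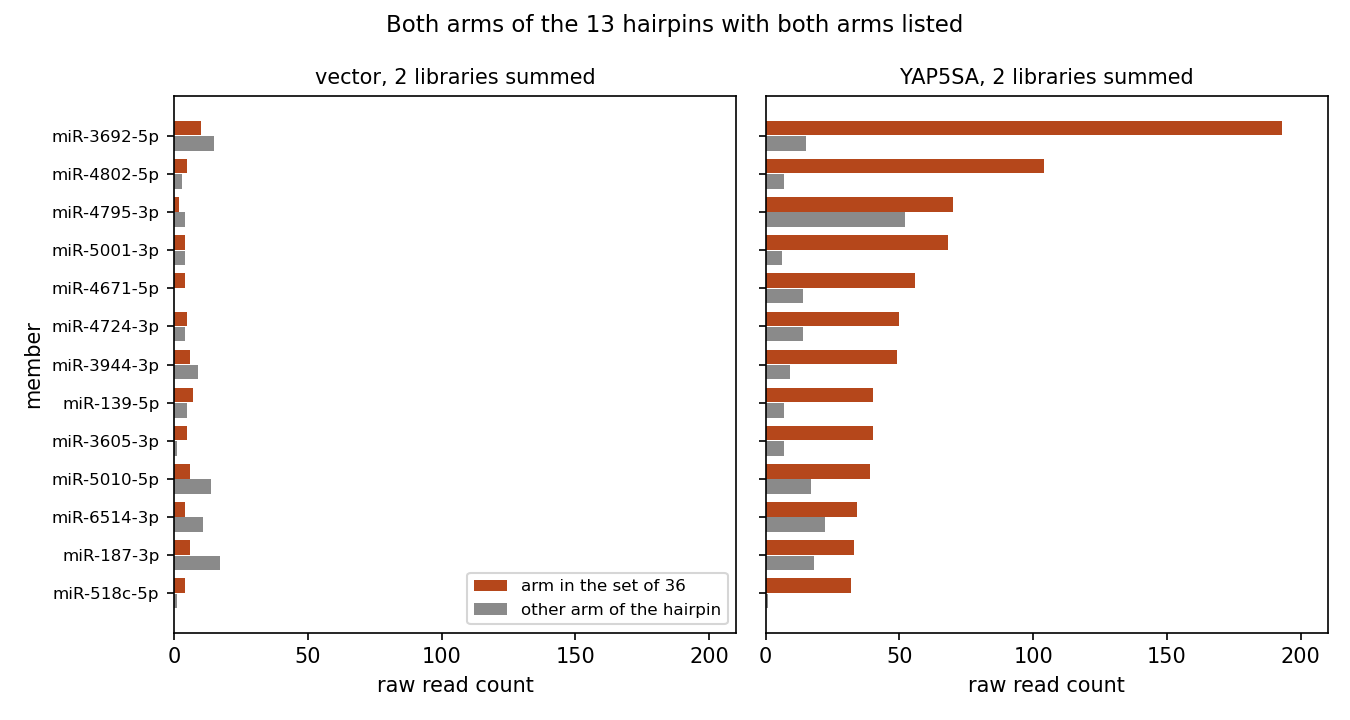
Raw counts summed over 2 vector libraries (left) and 2 YAP5SA libraries (right) for the 13 members whose opposite arm is listed (brown, member; grey, opposite arm). The members were chosen by high YAP5SA counts and the opposite arms were not; miR-4795-5p is the highest opposite arm in YAP5SA.

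The thresholds cut through a continuous range. Just inside, 9 members had a count of 5 in a vector library and 13 had a count of 15 or 16 in a YAP5SA library. Just outside, miR-135a-5p had 4 and 2 counts in vector and 46 and 14 in YAP5SA, and miR-4742-5p had 1 and 0 against 14 and 21. Both failed by a single count, as did miR-4426 with 1 and 1 against 16 and 14 and miR-4709-3p with 2 and 3 against 14 and 21. On the vector side, miR-378f had 3 and 6 counts against 24 and 47, miR-219-1-3p had 4 and 6 against 17 and 22, and miR-1265 had 5 and 6 against 16 and 19. The arm miR-4795-5p, described above, also failed by a single count. Among the miRNAs left out by name, miR-378a-5p had 5 and 2 counts against 51 and 20, miR-1290 had 1 and 0 against 15 and 16, and miR-1246 had 5 and 3 against 21 and 23.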

How the data were processed

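Mature miRNAs were counted in 2 vector and 2 YAP5SA libraries of HFE-145 cells, grouped by title. The authors deposited raw read counts per miRNA, per the file headers, with log2 normalized counts, a fold change and a p-value. In the authors' deposited table the fold is the ratio of group means of linear normalized values. FastQC and the hg19 build come from the submitters' processing notes. The sources used here do not give the authors' test, normalization, aligner, counter, strand use or miRNA version. The table's 3 lines without values were left out.

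Members and lists were chosen with earlier results of these data known. Counts were fitted with edgeR 4.0.16 (R 4.3.3; quasi-likelihood test, TMM, default filter, Benjamini-Hochberg at 0.05 over 602 miRNAs) after checks on simulated counts. Since the labels name no separate cultures, p-values reflect the spread of these samples alone, possibly technical. CPM uses TMM effective library sizes. Pooled count ratios carry exact binomial (Clopper-Pearson) 95% intervals for counting error only. These intervals treat each read as a separate molecule, which was not checked. Replicates were called different beyond counting error where the exact binomial 95% interval of their count share excluded equal CPM.

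Of 36 members, 30 were matched by name, hairpin or mature sequence to RefSeq miRNAs (GRCh38.p14), and hosts were taken from GENCODE 29, also GRCh38. Matches were sought in spliced GENCODE transcripts; the planned count of genome matches was not run. Folding used ViennaRNA 2.7.2; other steps used Python 3.11.15, pandas 2.3.3, NumPy 2.4.6, SciPy 1.17.1 and matplotlib 3.10.9. Every member is named, with full counts for the 12 of highest lower YAP5SA CPM and those touching a threshold, and for up to 8 miRNAs just outside; opposite arms and neighbours were to be named at a mean of 20 counts, and those named below that were chosen after their values were seen. Alternatives were other scalings, no filter, DESeq2 1.42.0, a replicate block, each library left out and other thresholds.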

Additional observations from a re-analysis of the deposited data

How the results depend on the processing

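With all libraries, edgeR called 71 miRNAs higher and 21 lower. Library totals gave 147 and 12 (median log2 fold change of all miRNAs 0.61, against 0.12 with TMM), no filter gave 34 higher, DESeq2 gave 17 higher, and leaving out a library gave 1 to 124 higher and 0 to 159 lower. Members called fell from 34 to 18 with no filter and 14 with DESeq2, and to between 1 and 30 with a library left out: 1 without vector replicate 1, 7 without vector replicate 2, 20 without YAP5SA replicate 1 and 30 without YAP5SA replicate 2. With a replicate block, edgeR called 102 higher, 34 lower and all 36 members. Deviations of same-numbered libraries from their group means had a correlation of 0.02. With 2 libraries per group the pairs mirror each other. The value therefore cannot show whether same-numbered libraries shared a culture or day. All 324 member log2 fold changes under the alternatives were above 0. The thresholds that chose the members all but fixed this direction, so nothing is read from it. The set itself depends on its thresholds: 12 members at most 3 and at least 20 counts, 55 at most 10 and at least 15, 24 with counts scaled to effective library size (all among the 36), and 45 to 123 with a library left out (47 and 45 without vector replicate 1 and 2, 62 and 123 without YAP5SA replicate 1 and 2). The members' median log2 ratio of YAP5SA replicate 1 to 2 turned to -0.077 with DESeq2 size factors; the cause was not tested. Depth limits single members, since 3 counts are 15.7 to 19.7 CPM.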
